A study of Rattus norvegicus with 40 samples.

Results

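Long intergenic noncoding RNAs (lincRNAs) expressed in rat brain were followed across 4 regions and between blast-exposed and sham rats. The genes have the lincRNA biotype in the hippocampus table and a row in the tables of all 4 regions, and were selected on their level, a mean of at least 1 CPM over the 40 libraries (CPM is the counts-per-million level, the raw count over the library total). This left 207 of the 1674 lincRNA genes of the hippocampus table. Of the rest, 636 were not in all 4 tables and 831 were under the limit. AABR07058985.1 at 1.005 CPM lay just inside the limit and AABR07050423.1 at 0.985 CPM just outside it. The choice rested on levels averaged over both treatments and all regions, so a lincRNA could enter through 1 region where it was high. Without their highest region, 43 of the 207 would have been under 1 CPM.

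The 8 groups, with 5 libraries each, were blast-exposed and sham rats sampled 12 months after exposure, in cerebellum, hippocampus, amygdala and anterior cortex. Total RNA of brain tissue was sequenced, and the labels give no strain, sex, age or blast dose. The labels do not say that libraries came from separate animals, so p-values measure only the spread between these samples, which may be technical. In bulk tissue, fewer cells of a type and less RNA per cell cannot be told apart.

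LincRNAs are transcripts of genes that lie between protein-coding genes and carry no long reading frame. Many stay in the nucleus, where some act on chromatin, splicing or the transcription of a neighbour, and for most no function is known. In brain they are known for low levels and for restriction to particular regions and cell types.

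Library totals ran from 11268097 to 37128383 counts, and the 207 lincRNAs together took 0.135% to 0.219% of a library's counts. Between 184 and 206 of them had at least 1 count in a library. Marker genes of each region, summarised as mean log2 CPM, were highest in their own region in sham libraries. The cerebellum list was at 8.38 in cerebellum and 0.78 to 1.04 elsewhere. As a summed level, the amygdala list was higher in sham cerebellum (900 to 1003 CPM) than in sham amygdala (382 to 474 CPM). A list of striatum genes was highest in anterior cortex, at a mean log2 CPM of 4.81. Some libraries stood apart. In anterior cortex, blast 8 detected 16577 genes and sham 11, 13 and 15 detected 17510 to 17845, against 18744 to 20748 in the other 6. In hippocampus, the blast libraries titled Hip_8 and Hip_666 and sham 11 were known from an earlier analysis to be high in choroid plexus genes, whose summed level ran from 182 to 11019 CPM in blast and from 113 to 6677 CPM in sham.

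Sequences are shown for an even and a cerebellar lincRNA that are described below and had a usable promoter entry, and for miRNAs encoded beside the most abundant lincRNA. By symbol, 6 of the 207 had an entry in the RefSeq promoter table (build GRCr8), which holds 250 bases before and 50 after a gene's start. The promoter of Tug1, which was abundant and among the most even lincRNAs, lies at chr14:82750485-82750784 on the minus strand. That of LOC102553190, for which RefSeq lists the synonym Lhx1os, lies at chr10:69901719-69902018 on the plus strand. Capitals mark CG dinucleotides.
Tug1: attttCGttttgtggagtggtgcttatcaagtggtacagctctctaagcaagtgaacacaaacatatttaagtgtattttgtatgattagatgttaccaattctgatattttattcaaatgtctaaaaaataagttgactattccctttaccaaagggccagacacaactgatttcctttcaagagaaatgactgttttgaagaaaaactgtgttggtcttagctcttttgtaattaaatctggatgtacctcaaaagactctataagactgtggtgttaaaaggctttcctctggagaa
LOC102553190: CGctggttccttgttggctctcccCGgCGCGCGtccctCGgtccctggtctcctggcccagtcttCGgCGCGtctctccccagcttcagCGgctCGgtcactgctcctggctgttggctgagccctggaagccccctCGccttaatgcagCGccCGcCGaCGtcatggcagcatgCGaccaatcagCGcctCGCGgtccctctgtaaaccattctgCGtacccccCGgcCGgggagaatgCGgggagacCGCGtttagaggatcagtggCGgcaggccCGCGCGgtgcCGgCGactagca
The Tug1 window held 1 CG dinucleotide and the LOC102553190 window 32. Of the 33469 promoter windows in the table, 94.5% held at least as many as Tug1 and 8.38% at least as many as LOC102553190. Both genes run head to head with a protein-coding gene. In RefSeq the start of Tug1 is 2676 bases from that of Morc2, which codes for a chromatin-silencing ATPase. In the tables' coordinates Tug1 and Morc2 are 1505 bases apart. The Tug1 window may therefore not lie at the start of the gene that was counted. The start of LOC102553190 is 893 bases from that of Lhx1 in RefSeq, and the genes are 845 bases apart in the tables' coordinates. Lhx1 codes for a LIM homeodomain transcription factor of Purkinje cells. Mature miRNAs follow 5′ to 3′ with the seed, bases 2 to 8, in capitals.
rno-miR-770-5p: aGCACCACgugucugggccacg
rno-miR-770-3p: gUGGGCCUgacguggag
rno-miR-1188-5p: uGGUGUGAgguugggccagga
rno-miR-1188-3p: cGAGGCUCcccaccaca
These come from Mir770 and Mir1188, which with the unnamed miRNA gene AABR07065531.1 were the 3 miRNA genes with at least 1 CPM within 200 kb of that lincRNA. The counts come from long RNA libraries and do not measure the mature forms.

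A single gene led the lincRNAs. AABR07065531.5 (ENSRNOG00000059660, chromosome 6, 133667975 to 133676907, plus strand, in the tables' coordinates; the sources used here name no build) averaged 502 CPM and held 29.5% of all lincRNA counts. In sham cerebellum its levels were 289, 304, 279, 279 and 333 CPM, and in sham hippocampus 544, 542, 508, 463 and 585 CPM. In sham amygdala they were 800, 706, 484, 741 and 745 CPM, and in sham anterior cortex 352, 350, 528, 394 and 421 CPM. All cerebellum libraries lay below all others, and 4 of the 5 amygdala libraries lay above all others, sham 14 at 484 CPM being the exception. By edgeR's quasi-likelihood test with Benjamini-Hochberg (BH) adjustment over 15695 genes, cerebellum was lower than amygdala by a log2 fold change of -1.37 ± 0.12 (SE, adjusted p = 3.4e-09) and hippocampus was lower than amygdala by -0.40 ± 0.12 (adjusted p = 0.018). Hippocampus and anterior cortex differed by 0.27 ± 0.12, which missed the threshold of 0.05 (adjusted p = 0.068).

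The gene lies between Dlk1, which codes for an imprinted Notch-family ligand, and a run of miRNA genes. Of 81 genes within 200 kb, 32 were annotated as miRNAs, 2 as lincRNAs and 2 as protein-coding. Mir770 averaged 73.9 CPM and AABR07065531.1 90.8 CPM over the 40 libraries, while Dlk1 averaged 3.84 CPM. The 3 genes of 14712 whose log2 CPM ran most like that of AABR07065531.5 over the 40 libraries were Pnck, which codes for a calcium and calmodulin dependent kinase (Pearson r = 0.942), Rab26, a small GTPase of secretory vesicles (0.938), and Ano2, a calcium-activated chloride channel (0.915). The libraries share regions, so these values describe regional pattern as much as library variation.

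The next most abundant lincRNAs were an order below it on the CPM scale. AABR07017145.1, 31.0 kb from the gene of the cortical transcription factor Fezf2, averaged 74.5 CPM. AC127084.5 averaged 62.0 CPM, but it overlaps the protein-coding AC127084.1 and the antisense gene AC127084.3, and use of strand in counting is not stated, so their reads cannot be told apart. AABR07024542.1, 23.4 kb from the signalling gene Wnt5a, averaged 61.3 CPM and Tug1, a nuclear lincRNA, 51.2 CPM. Per kilobase of transcript the order changed, with 861 CPM per kb for AABR07065531.5, 36.4 for AABR07017145.1, 55.8 for AABR07070131.1 (478 bases from Ncam1, a neural adhesion molecule) and 9.996 for Tug1. The first 10 lincRNAs held 53.1% of the lincRNA counts. The median over the 207 was 2.25 CPM, against 24.97 CPM over the 14046 protein-coding genes with a mean of at least 1 CPM, 31 lincRNAs averaged 10 CPM or more and 89 between 1 and 2 CPM.

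**Figure D1:**
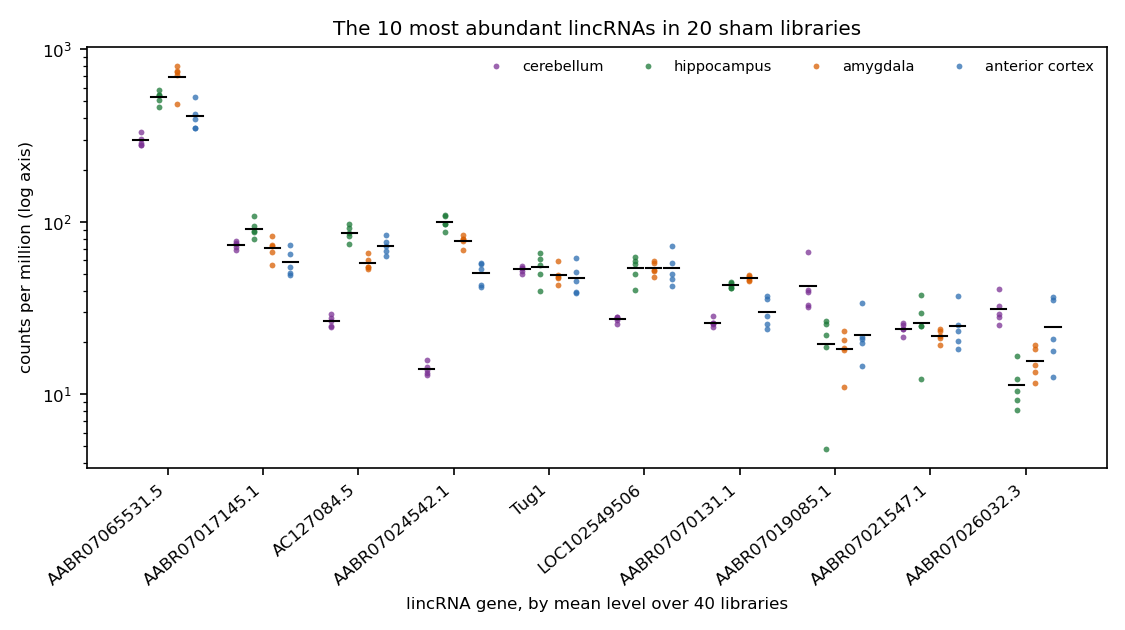
Levels of the 10 most abundant lincRNAs in the 20 sham libraries, in CPM on a log axis; points are libraries coloured by region and bars are means of 5. AABR07065531.5 stands at 279 to 800 CPM, AABR07024542.1 is lowest in cerebellum, and Tug1 lies at a like level in every region.

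Most of these genes carry clone names. Of the 207, 167 have an AABR name, 18 an AC name and 18 a LOC name, and 3 have symbols: Tug1, Kantr and a gene listed as Rfwd3 (ENSRNOG00000051461). They were spread over 21 chromosomes, with 29 on chromosome 1 and 17 on X, and their annotated transcripts had a median length of 1303 bases (246 to 6542). By the tables' coordinates, 18 overlap another gene, 9 of these a protein-coding one. Without stated strand use, reads of the 18 are uncertain. The nearest coding gene was a median of 20.7 kb away, and within 10 kb for 82. Of the 207, 14 start head to head with a coding gene within 2 kb, and 13 lie within 10 kb downstream of one on the same strand, where reads beyond the end of the coding gene could be counted. In the cerebellum table, 53 of the 207 carry another name and 2 a protein-coding biotype, and genes were joined by identifier.

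Across regions, 123 of the 207 averaged at least 1 CPM in all 4 regions, 66 in 2 or 3 and 18 in 1 region. Of those 18, 13 reached it in cerebellum, 3 in hippocampus and 2 in amygdala. The 4 sham region means spanned a log2 range above 2 for 57 lincRNAs (27.5%), against 14.9% of the 15695 genes tested in sham. The 207 include the 43 that would be under 1 CPM without their highest region, for which a wide range was favoured by the choice. The share is therefore a description.

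The first question between sham regions was how the cerebellum differed from the forebrain regions. Sham cerebellum differed from sham hippocampus in 109 of the 205 lincRNAs tested (53.2%, against 53.3% of all genes). Of these, 44 were higher (21.5%, against 25.4% of all genes) and 65 lower (31.7% against 27.9%). At a difference of at least 2-fold, 83 were called, or 40.5% against 24.7% of all genes. Against sham amygdala 107 were called (52.2% against 58.5%), 47 of them higher (22.9% against 27.8%) and 60 lower (29.3% against 30.8%). Against sham anterior cortex 109 were called (53.2% against 60.2%), 46 of them higher (22.4% against 29.8%) and 63 lower (30.7% against 30.4%). At least 2-fold, the shares of all genes were 27.7% and 27.8% in these comparisons, and 84 (41%) and 81 (39.5%) lincRNAs were called. The median size of the log2 difference between cerebellum and hippocampus was 0.86 over the lincRNAs and 0.51 over all genes, and the median SE was 0.36 and 0.18, so lincRNAs were measured less precisely. The set holds lincRNAs that entered through 1 high region, so the shares are a description. Among the 123 with at least 1 CPM in every region, 57 were called between cerebellum and hippocampus (46.3%). At least 2-fold, 31 of the 123 were called against hippocampus (25.2%, against 24.7% of all genes), 30 against amygdala (24.4% against 27.7%) and 25 against anterior cortex (20.3% against 27.8%). Asking for 1 CPM in every region leaves out lincRNAs that are low in any region. All genes had no such limit, so these shares cannot be compared directly. In 31 lincRNAs all 5 sham cerebellum libraries lay above all 15 other sham libraries (15.1%, against 19.6% of all genes), and in 20 below (9.76%, against 10.1%).

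The 16 lincRNAs described next by region were chosen for the widest gap between their highest sham region and the next, and 11 of them averaged under 1 CPM outside that region, so they entered through it. Their levels and log2 fold changes (edgeR, ± SE) are therefore a description, with no test.

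The widest cerebellar gap was that of AABR07053850.1 (ENSRNOG00000059311, chromosome 3, 130961803 to 130965743). Its levels were 31.5, 19.6, 22.4, 23.2 and 25.9 CPM in sham cerebellum, against 0 to 0.0784 CPM in the 15 forebrain libraries, 11 of which had no count. Pooled over libraries it had 1699 counts in cerebellum and 4 in the forebrain regions, a ratio of 1262 (492 to 4637, exact 95% counting interval). Its nearest coding gene, Btbd3, was 386 kb away.

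LOC102553190 had 24.99, 28.9, 14.2, 31.6 and 23.9 CPM in sham cerebellum, against 0 to 0.443 CPM in the 15 forebrain libraries. The pooled counts were 1724 and 18, a ratio of 285 (180 to 481). Its head-to-head partner Lhx1 was also higher in cerebellum than in hippocampus, by a log2 fold change of 9.53. The CG-rich window printed above is the upstream side of this pair.

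AABR07043098.1, 39.2 kb from Cbln1, the gene of a synaptic organiser secreted by granule cells, had 60.7, 64.0, 59.9, 59.8 and 63.7 CPM in sham cerebellum. The 15 forebrain libraries had 0 to 1.46 CPM. The pooled ratio was 85.8 (72.8 to 102), and Cbln1 itself was higher in cerebellum than in hippocampus by a log2 fold change of 8.06. AABR07026984.1, near the gene of the matrix protein Tgfbi, had 20.8 to 23.1 CPM in sham cerebellum and 0 to 1.04 CPM in the forebrain libraries (pooled ratio 57.4, 45.7 to 72.9). The intervals cover counting error only.

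On the other side, among the 10 most abundant lincRNAs, AABR07024542.1 had 13.9, 14.4, 12.95, 15.7 and 13.4 CPM in sham cerebellum, against 109, 87.7, 96.7, 96.8 and 110 CPM in sham hippocampus. The groups were far apart, at a log2 fold change of -2.96 ± 0.10 (SE, edgeR adjusted p = 6.1e-16). AC127084.5 and LOC102549506, 56.4 kb from Spock1, the gene of a brain proteoglycan, were also lower in cerebellum than in hippocampus, by log2 fold changes of -1.83 ± 0.10 and -1.10 ± 0.13 (edgeR adjusted p = 1.1e-12 and 4.2e-07).

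**Figure D2:**
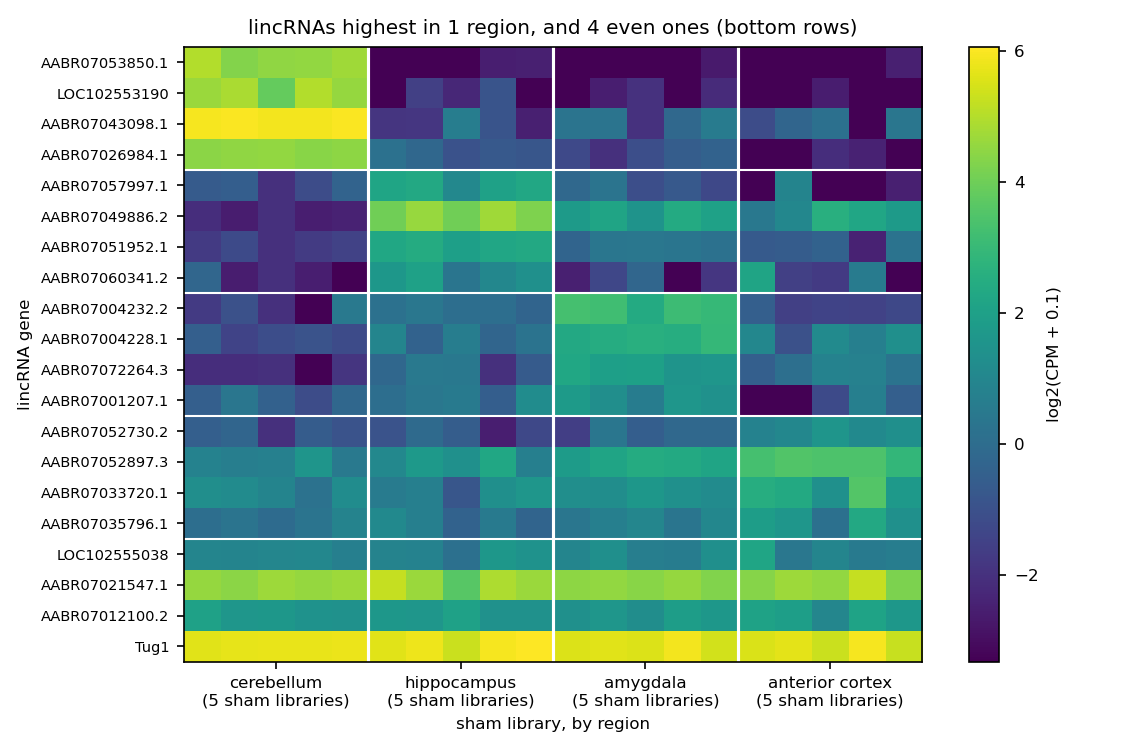
Level, as log2(CPM + 0.1), of the 4 lincRNAs with the widest gap to the next region for each region, in order of cerebellum, hippocampus, amygdala and anterior cortex, and below them the 4 most even lincRNAs; columns are the 20 sham libraries. The 4 cerebellar lincRNAs are near 0 CPM in the forebrain libraries, while gaps for the other regions are smaller.

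Among the forebrain regions, sham hippocampus differed from sham amygdala in 32 lincRNAs (15.6%, against 20.7% of all genes), 19 of them higher (9.27% against 9.14%) and 13 lower (6.34% against 11.5%). From sham anterior cortex it differed in 69 (33.7% against 43.6%), 36 higher (17.6% against 22%) and 33 lower (16.1% against 21.7%). Sham amygdala differed from sham anterior cortex in 35 (17.1% against 21.8%), 16 higher (7.80% against 10.3%) and 19 lower (9.27% against 11.4%). At least 2-fold, the counts were 24 (11.7% against 6.86%), 50 (24.4% against 12.5%) and 22 (10.7% against 5.27%). Among the 123 with at least 1 CPM in every region, they were 6 (4.88%), 21 (17.1%) and 7 (5.69%). Without the libraries that stood apart, 38 were called between hippocampus and anterior cortex and 12 between amygdala and anterior cortex. Only sham 14 and 33 then stood for anterior cortex, and the loss of those libraries and the smaller number of samples cannot be told apart.

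For hippocampus, AABR07049886.2 had 16.0, 24.2, 16.1, 26.2 and 18.9 CPM in sham hippocampus, against 3.32, 4.38, 2.72, 5.22 and 4.08 CPM in sham amygdala. All hippocampus libraries were above all others, at a log2 fold change over amygdala of 2.35 ± 0.29. In sham cerebellum it had 1 or 2 counts per library. AABR07051952.1, 46.9 kb from Zeb2, which codes for a zinc finger repressor of neural development, had 3.81 to 5.39 CPM in sham hippocampus and 0.711 to 1.21 CPM in sham amygdala, a log2 fold change of 2.12 ± 0.33. Zeb2 moved the same way between these regions, by 0.91. AABR07057997.1, 96.9 kb from Zhx2, stood at 2.69 ± 0.73 over amygdala, and Zhx2 itself at 0.08. AABR07060341.2 varied from 1.15 to 4.06 CPM in hippocampus and from 0 to 4.35 CPM in anterior cortex. Its log2 fold change over anterior cortex was 0.92 ± 0.84, but 2.37 without anterior cortex sham 11, 2.39 with the replicate block and 4.36 without the libraries that stood apart.

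For amygdala, 2 of the 4 lincRNAs lie near each other on chromosome 1. AABR07004228.1 (131380879 to 131431948) is 16.5 kb from Nr2f2, the gene of an orphan nuclear receptor of caudal and subpallial forebrain, and AABR07004232.2 (131688104 to 131690120) lies beyond it. AABR07004232.2 had 9.72, 8.98, 5.21, 8.48 and 7.67 CPM in sham amygdala and 0 to 1.29 CPM in the other 15 sham libraries. Its log2 fold change of hippocampus over amygdala was -3.04 ± 0.46. AABR07004228.1 had 4.90, 5.49, 5.88, 5.58 and 7.42 CPM in sham amygdala and 0.266 to 2.42 CPM elsewhere, with a log2 fold change of hippocampus over amygdala of -2.36 ± 0.36, beside -2.03 for Nr2f2. AABR07072264.3 had 2.83 to 4.66 CPM in sham amygdala and 0.148 to 1.27 CPM in sham hippocampus (log2 fold change of hippocampus over amygdala -2.15 ± 0.42). That of AABR07001207.1 was -0.99 ± 0.58.

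For anterior cortex the gaps were smallest. AABR07052897.3, 4.29 kb from Hsd17b12, an enzyme of fatty acid elongation, had 9.76, 11.3, 10.7, 10.7 and 7.33 CPM in sham anterior cortex, against 3.48, 4.38, 5.36, 5.07 and 4.32 CPM in sham amygdala. The libraries did not overlap, and the log2 fold change of amygdala over anterior cortex was -1.23 ± 0.25, and -1.05 without the libraries that stood apart. AABR07052730.2, 4.14 kb from the integrin gene Itgav, had 1.69 to 2.87 CPM in sham anterior cortex and 0.237 to 1.19 CPM in sham amygdala (-1.68 ± 0.44, and -1.91 without those libraries). Without them the folds of both were about as large, with 2 anterior cortex libraries left. AABR07033720.1 at 2.54 to 11.7 CPM and AABR07035796.1 at 1.00 to 4.98 CPM in anterior cortex overlapped the amygdala in at least 1 library. The log2 fold change of amygdala over anterior cortex was -1.28 ± 0.41 for AABR07033720.1, but -0.83 without anterior cortex sham 15 and -0.29 without the libraries that stood apart. For AABR07035796.1 it was -1.05 ± 0.38, and -0.24 without the libraries that stood apart.

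The most even lincRNAs were LOC102555038, AABR07021547.1, AABR07012100.2 and Tug1. Tug1 had 50.1, 52.1, 53.8, 54.1 and 55.3 CPM in sham cerebellum, and 39.5 to 66.5, 42.9 to 59.2 and 38.9 to 61.5 CPM in sham hippocampus, amygdala and anterior cortex. The ranges overlap in all regions, and the 6 log2 fold changes ran from -0.17 to 0.14, which follows from the choice of even genes. Among the other lincRNAs with symbols, the gene listed as Rfwd3 was higher in cerebellum than in hippocampus by 0.61 ± 0.19 and Kantr by 0.81 ± 0.29 (edgeR adjusted p = 0.0093 and 0.025).

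LincRNAs were set beside their nearest protein-coding genes in 166 pairs where both were tested. Of 70 lincRNAs called at least 2-fold between sham cerebellum and hippocampus, the neighbour was called the same way in 42 (60%) and the opposite way in 12 (17.1%). The same count over 2891 coding genes called at least 2-fold and their own nearest coding genes gave 41.5% and 18.4%. Between hippocampus and amygdala, 9 of 18 lincRNAs (50%) had a neighbour called the same way and 2 the opposite way, against 16.5% and 8.80% for coding genes. Spearman's rho between the log2 fold changes of lincRNA and neighbour was 0.48 over the 166 pairs and 0.20 over the coding pairs for cerebellum over hippocampus; pairs share libraries, so this is a description. The pairs include AABR07030473.1 with Zfp385c, at 5.71 and 6.88, AC132760.1 with the secreted protein gene Scube3, at -3.38 and -2.60, and AABR07006475.1 with the glycosyltransferase gene Gcnt1, 812 bases away, at 3.32 and 3.31. In other pairs the genes went opposite ways, as in LOC102553088 (-4.44) with the vesicle coat gene Sec24b (0.26). Between cerebellum and hippocampus, 83 lincRNAs were called at least 2-fold, in pairs or not. Of these, 26 would be under 1 CPM without their highest region. The coding genes were not chosen by level in this way, so the shares cannot be compared directly. How much of this comes from that choice, from overlap with a coding gene or from reads past a neighbour's end was not tested.

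**Figure D3:**
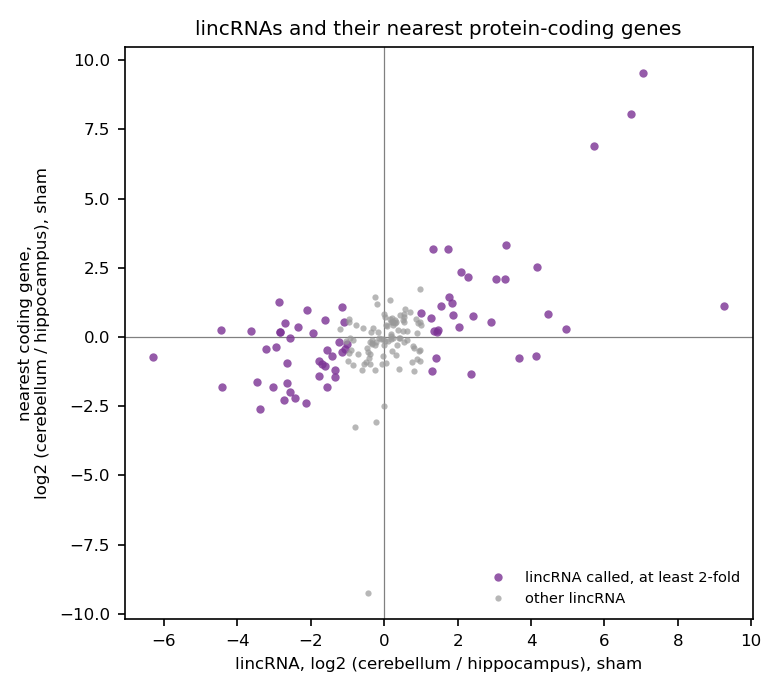
Log2 fold change of sham cerebellum over sham hippocampus for each lincRNA (x axis) and for its nearest protein-coding gene (y axis), 166 pairs. Purple points, lincRNAs called at least 2-fold, lie mostly in the lower left and upper right of the plot, with LOC102553190 and its partner Lhx1 at 7.04 and 9.53.

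Some genes whose proteins handle nuclear RNA were higher in sham cerebellum. Of 12 paraspeckle proteins, 7 were higher than in hippocampus (58.3%, against 25.4% of all genes) and 0 lower (median log2 fold change 0.43), and 11 were higher than in anterior cortex (91.7%, against 29.8% of all genes; median 0.70). Of 18 genes of nuclear RNA decay and 3′ end processing, 6 were higher than in hippocampus (33.3%, near the 25.4% of all genes) and 0 lower (0.20), and of 11 nuclear retention and chromatin partners 6 were higher (54.5%) and 2 lower (0.31). The median over all genes was -0.02 in that comparison. Against amygdala and against anterior cortex, 12 of the 18 decay genes were higher (66.7%, against 27.8% and 29.8% of all genes) and 0 lower. Of the 11 partners, 8 were higher (72.7%) and 2 lower in both. Only 1 of 14 names of snoRNA host genes and 3 of 7 names of the imprinted cluster around Dlk1 were found in the tables.

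Blast exposure was compared with sham in each region. In no region was a lincRNA called by edgeR's quasi-likelihood test at an adjusted p under 0.05, of 175 tested in cerebellum, 188 in hippocampus, 186 in amygdala and 177 in anterior cortex. In the same fits 0.0% of all genes were called in each region. DESeq2, limma voom and a joint edgeR model of 8 groups also called 0. At an unadjusted p under 0.05 there were 10 lincRNAs in cerebellum (5.71%, against 4.62% of all genes), 4 in hippocampus (2.13% against 1.89%), 12 in amygdala (6.45% against 8.68%) and 10 in anterior cortex (5.65% against 4.32%). The shares lay near those of all genes. The median log2 fold change over the lincRNAs was -0.01 in cerebellum, 0.01 in hippocampus, 0.04 in amygdala and -0.08 in anterior cortex, and within 0.01 of 0 over all genes. The authors' deposited table gave an adjusted p to 206 of the 207 in cerebellum, 205 in hippocampus, 1 in amygdala and 206 in anterior cortex, and none of these was under 0.05. In the authors' deposited table, 2, 1, 17 and 0 of all genes were under 0.05 in the same order of regions, so for amygdala it says nothing of the other 206 lincRNAs.

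Marker lists of other cell types leaned to 1 side between blast and sham in some regions, but their summed levels overlapped and no gene of these lists passed the test. In cerebellum, all 10 choroid plexus genes tested were higher in blast (median log2 fold change 1.84, summed level 169 to 3692 CPM in blast and 153 to 1734 CPM in sham) and all 10 genes of fibroblasts and meninges (0.82, 128 to 353 CPM in blast and 43.8 to 190 CPM in sham). All 9 genes of ependyma and motile cilia were also higher in cerebellum (0.67, 117 to 156 CPM in blast and 97.6 to 134 CPM in sham), 7 of them at an unadjusted p under 0.05 (edgeR, against 4.62% of all genes). In hippocampus, all 11 choroid plexus genes were higher in blast (1.55). So were all 10 genes of fibroblasts and meninges (0.42), all 9 of ependyma and motile cilia (0.52) and all 10 of oligodendrocytes (0.18). In amygdala, 10 of 11 choroid plexus genes were lower in blast (-0.75, 103 to 677 CPM in blast and 86.7 to 699 CPM in sham). There 9 of 10 oligodendrocyte genes were also lower (-0.12), while 9 of 10 genes of fibroblasts and meninges were higher (0.22). Their part in the lincRNA values was not tested.

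**Figure D4:**
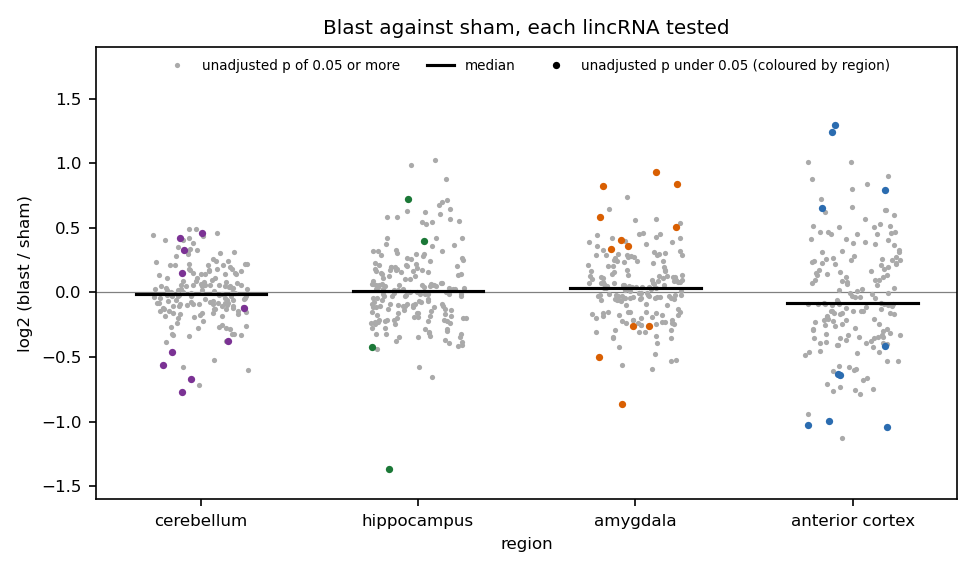
Log2 fold change of blast over sham for each lincRNA tested in cerebellum, hippocampus, amygdala and anterior cortex; horizontal bars are medians, and coloured points have an unadjusted p under 0.05. Medians lie between -0.08 and 0.04, and the spread is widest in anterior cortex.

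In cerebellum, AABR07017159.2 had 1.11, 1.48, 1.22, 0.985 and 1.62 CPM in blast, against 2.45, 1.996, 2.01, 1.84 and 2.57 CPM in sham. All blast libraries lay below all sham libraries, which held for 1 lincRNA (0.571%, against 0.264% of all genes), at a log2 fold change of -0.77 ± 0.21 (SE, edgeR adjusted p = 0.96). AABR07043098.1, the lincRNA near Cbln1, had 76.1, 71.1, 62.9, 63.9 and 70.6 CPM in blast, against 60.7, 64.0, 59.9, 59.8 and 63.7 CPM in sham. The groups overlapped and the log2 fold change was 0.15 ± 0.06 (edgeR adjusted p = 0.999). AABR07060519.1 stood at 0.46 ± 0.18, AC125248.1, 17.2 kb from the gene of the lipopolysaccharide receptor Cd14, at -0.67 ± 0.26, and LOC102549726 at 0.33 ± 0.13. LOC102549726 overlaps 4 protein-coding genes of the MHC class I cluster, so its reads are uncertain.

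In hippocampus, AABR07066529.3, 1.38 kb from Fem1a, had 2.62, 2.41, 2.42, 2.59 and 2.53 CPM in blast, against 3.71, 2.85, 4.33, 3.03 and 3.06 CPM in sham. It was the 1 lincRNA with all blast libraries below all sham libraries (0.532%, against 0.173% of all genes), at -0.42 ± 0.18 (edgeR adjusted p = 0.998). The hippocampal AABR07051952.1 stood at 0.39 ± 0.17, AABR07052897.2 at 0.72 ± 0.32, AC125248.1 at 0.65 ± 0.32, AC118434.1 at -1.37 ± 0.54 and the Wnt5a neighbour AABR07024542.1 at -0.19 ± 0.09. AC125248.1 was thus higher in blast in hippocampus and lower in cerebellum, and neither value passed the test.

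In amygdala, AABR07038849.1, 1.96 kb from Pcyt1b, an enzyme of phosphatidylcholine synthesis, had 18.8, 15.7, 16.6, 18.2 and 17.8 CPM in blast, against 13.8, 13.2, 12.1, 14.5 and 13.996 CPM in sham. All blast libraries lay above all sham libraries, as for 1 lincRNA of 186 (0.538%, against 0.838% of all genes), at 0.34 ± 0.09 (edgeR adjusted p = 0.459). AABR07060862.1, 44.5 kb from the stress gene Gadd45a, stood at 0.83 ± 0.29, AABR07041096.1 at 0.40 ± 0.14, AABR07041724.2 at -0.86 ± 0.31 and AABR07001068.1 at -0.26 ± 0.11. None passed.

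In anterior cortex, AC141377.3, 3.91 kb from the nucleotide receptor gene P2ry4, had 1.06, 1.62, 0.970, 1.501 and 1.79 CPM in blast, against 0.0887, 0.482, 0.468, 0.699 and 0.936 CPM in sham. No sham library reached the lowest blast library, which held for no other lincRNA (0.565%, against 0.483% of all genes), at 1.29 ± 0.50 (edgeR adjusted p = 0.799), and at 0.86 without the libraries that stood apart. Its 5 sham levels include those of the 3 libraries that detected fewer genes. AABR07035802.1 had 2.98, 2.89, 2.505, 4.03 and 3.06 CPM in blast and 7.10, 6.03, 3.14, 9.53 and 4.45 CPM in sham, at -1.04 ± 0.32 (edgeR adjusted p = 0.799), and at -0.33 without the libraries that stood apart. AABR07035012.1 stood at 1.24 ± 0.51, at 0.78 without blast 8, whose 4.68 CPM was far above the rest, and at 0.17 without the libraries that stood apart. AABR07072264.3 stood at 0.79 ± 0.34, AABR07056953.1 at -0.64 ± 0.25 (-0.21 without the libraries that stood apart) and AABR07035273.1 at -0.42 ± 0.17. None of these passed.

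The blast effect averaged over the 4 regions was fitted with limma voom, with the title number as a random block, and this called 1 of the 207 lincRNAs, LOC102551095 (ENSRNOG00000061118, chromosome 2, 183807073 to 183811118, minus strand), against 0.0244% of 16378 genes. In cerebellum it had 26.7, 23.5, 21.1, 20.7 and 34.0 CPM in blast, against 32.8, 33.1, 32.5, 31.3 and 32.7 CPM in sham. In hippocampus it had 14.2, 11.5, 12.0, 12.4 and 16.6 CPM in blast, against 16.6, 16.3, 18.4, 13.2 and 11.7 CPM in sham. In these regions 4 of 5 blast libraries were below the sham median, and the groups overlapped.

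In amygdala LOC102551095 had 11.6, 13.3, 11.7, 8.96 and 13.3 CPM in blast, against 20.5, 15.2, 13.9, 14.9 and 17.04 CPM in sham. All 5 blast libraries lay below all sham libraries, as for 1 lincRNA of 186 (0.538%, against 0.484% of all genes). In anterior cortex it had 12.0, 9.53, 14.7, 9.16 and 13.7 CPM in blast, against 12.9, 13.98, 15.9, 11.5 and 15.1 CPM in sham, which overlapped.

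The log2 fold change of LOC102551095 was -0.36 ± 0.07 over the regions (SE, limma voom adjusted p = 0.0384), and 17 of the 20 blast libraries were below the sham median of their region. These 20 libraries repeat 5 title numbers. The correlation within title numbers, fitted jointly over all genes, was 0.019, so the fit counted libraries of the same number as almost independent. Its mean log2 CPM per title number, centred within regions, ran from -0.42 to 0.15 in blast and from 0.01 to 0.26 in sham. The number means thus overlapped between blast and sham. If this gene varied by number, the SE and adjusted p are too small. Within regions edgeR gave -0.38 ± 0.11 in cerebellum, -0.19 in hippocampus, -0.50 ± 0.13 in amygdala and -0.29 in anterior cortex, and none passed there (adjusted p 0.459 in amygdala and 0.96 in cerebellum). Leaving out 1 library at a time kept the log2 fold change between -0.38 and -0.33, but the adjusted p exceeded 0.05 in 34 of 40 such fits (0.0181 to 0.140 over all alternatives). Without the libraries that stood apart it was 0.0895. An exact two-sided permutation test over the 10 title numbers, chosen after seeing the data, gave a mean difference of -0.32 in log2 CPM and p = 0.0238, where the smallest possible p is 0.00794. The gene had been picked by its p in the same libraries, so this is no independent support. The nearest coding gene, Tmem154, is 95.3 kb away, and RefSeq's table has no entry by this symbol.

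**Figure D5:**
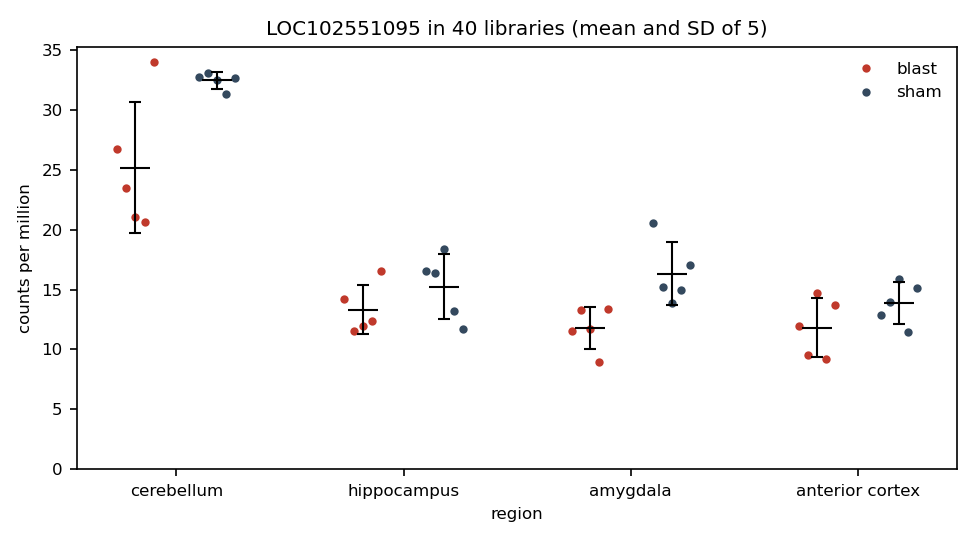
LOC102551095 in CPM in 40 libraries; points are libraries, blast to the left of sham in each region, with the mean and SD of 5. The blast mean is below the sham mean in all 4 regions, without overlap in amygdala only.

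Over the regions, 14 lincRNAs had an unadjusted p under 0.05 (6.76%, against 7.82% of all genes). AABR07035012.1 and AABR07001942.1 came next, both at a log2 fold change of 0.55 (limma voom adjusted p = 0.405 and 0.513), and at 0.32 and 0.25 in this order without the libraries that stood apart. Whether the blast effect differed between regions was tested by the edgeR interaction F test, which called 0 of the 207 and 0.0% of all genes. At an unadjusted p under 0.05 there were 16 (7.73%, against 4.76% of all genes), and limma voom with a replicate block also called 0. The smallest p was that of AABR07072264.3 at 0.000327 (edgeR adjusted p = 0.670), the lincRNA that was highest in amygdala, followed by AABR07026984.1 and AABR07035273.1.

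Among the genes that handle nuclear RNA, none passed in any region. The 18 decay genes had a median log2 fold change of blast over sham of 0.03 in cerebellum, -0.05 in hippocampus, 0.09 in amygdala and 0.09 in anterior cortex, and 15 of the 18 were higher in blast in amygdala. The paraspeckle list lay at 0.00, -0.04, 0.03 and 0.06 in the same order of regions.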

How the data were processed

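Per the labels' protocols, RNA was extracted with Qiazol, purified on RNeasy columns and made into libraries with an NEBNext Ultra kit. CASAVA is the tool in the submitters' processing notes. For the aligner, counter, annotation, genome build and use of strand: not given in the sources used here. The deposited tables, 1 per region, hold raw counts per gene by their headers, and these counts were used. The authors also deposited a normalized signal, which was the count times 1 factor per library in 39 of the 39 libraries checked, FPKM values (not used), log2 fold changes and p-values of their own test. No count column was left without a group. A sham library of the amygdala is numbered 13 in the table, while no amygdala title has that number and 1 has 12, so its group alone was used.

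Genes were joined by identifier, with 20814 in all 4 tables. The members, gene lists and tests were chosen with earlier results of these data known. Each region's blast against sham used edgeR 4.0.16 (filterByExpr, TMM, two-sided quasi-likelihood F tests), and the 6 sham comparisons 1 such fit of the 20 sham libraries. Regions came in separate tables, so levels set across regions rest on the counts alone. Adjusted p-values are Benjamini-Hochberg values over all genes tested, with calls under 0.05. The mean blast effect used limma 3.58.1 voom with the title number as a random block, and the interaction edgeR over 8 group means. DESeq2 1.42.0 was an alternative, with other size factors, no low-count filter, a replicate block and each library left out. The fits were tested on simulated data with known changes. Those changes were larger than any blast value of a lincRNA named here, with less spread than the median lincRNA had. The simulation therefore does not tell whether smaller changes in lincRNAs could have been found. Levels are CPM of the library total; fold changes come from the fits.

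Genes named were the 10 highest in mean, the 3 lowest p each way per region, the 4 with the widest sham gap per region and the 4 most even, those with symbols, those next to the limit, the 3 lowest p of both joint tests, and nearest coding genes. The pairs of lincRNA and neighbour, and the counts by breadth of expression, were named after their values were seen. Library totals of 11268097 to 37128383 counts bound counting error; 3 counts correspond to at most 0.266 CPM. Of 80 pairs of libraries of the same group, the closest had a chi-square of 6.30 per degree of freedom, so none was a duplicate. Promoter and miRNA sequences are RefSeq's (GRCr8); a promoter of LOC102549726 was not used, since RefSeq places it on the other strand than the tables.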

Additional observations from a re-analysis of the deposited data

Results flagged for a closer look

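Of 105 groups of 5 libraries looked at for the lincRNAs named, 4 held 1 library far from the other 4, by a gap above 0.71 of the group's whole range; chance gives about 1 in 20. AABR07035012.1 in anterior cortex blast 8 was highest at 4.68 CPM, against 1.49 to 1.98 CPM in the other blast libraries, a gap of 0.849 of the range. AABR07056953.1 in the same library was lowest at 1.87 CPM, against 3.79 to 4.31 CPM, a gap of 0.788. This library also detected the fewest genes. LOC102549726 in the cerebellum blast library titled Cer666 was lowest at 15.5 CPM, against 20.1 to 21.0 CPM, a gap of 0.840. AABR07019085.1 in sham cerebellum 33 was highest at 66.9 CPM, against 31.9 to 40.2 CPM, a gap of 0.763.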

How the results depend on the processing

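Within regions, 0 lincRNAs were called between blast and sham under each alternative run, and 0 in the interaction, also without the libraries that stood apart and with each library left out. The mean blast effect called 1 lincRNA, and 0 to 1 with a library left out. It called 0 without the libraries that stood apart and 0 with no filter on low counts, where more genes were tested. Of 931 log2 fold changes of single lincRNAs under alternatives, 875 kept their direction and side of the threshold and 47 no longer fell under it. Another 9 fell under it where the main value had not (AABR07060341.2 in 3, AABR07035796.1 in 6), and 0 changed direction. These lincRNAs were named for a wide sham gap or a low p in the same libraries, so kept directions follow largely from the choice. The blast values within regions kept their side by missing the threshold throughout. The 132 interaction p-values of single lincRNAs, which have no direction, all missed the threshold. LOC102551095 in hippocampus stood at -0.10 without sham 14, against -0.19 with it.

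Without the libraries that stood apart, 38 lincRNAs in place of 69 were called between sham hippocampus and anterior cortex and 12 in place of 35 between sham amygdala and anterior cortex, where the smaller number of samples cannot be told apart from the loss of those libraries. With 1 library left out, the counts ran from 25 to 38 for hippocampus against amygdala, 52 to 68 for hippocampus against anterior cortex, 24 to 49 for amygdala against anterior cortex, and 100 to 112, 96 to 112 and 102 to 114 for cerebellum against hippocampus, amygdala and anterior cortex. Title numbers recur over regions. Of 27 pairs of sham libraries with the same number, 11 correlated above 0.1, and in 6 the same number was the best match. The correlations were of deviations from means of 5 libraries, so they cannot tell whether libraries of a number came from 1 animal. With the number as a replicate block, 31, 62, 29, 107, 108 and 108 lincRNAs were called in these 6 comparisons, against 32, 69, 35, 109, 107 and 109. Blast and sham groups share no numbers, so no paired analysis was possible there. Most lincRNAs lay at low counts, with a median SE of 0.36 in the comparison of cerebellum with hippocampus, against 0.18 over all genes.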
